A study of Mus musculus with 13 samples.

Results

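The 51 genes described here encode proteins that copy DNA, together with E2F transcription factors and E-type cyclins. They were listed by name for their function, with earlier results of these data known but by a rule that uses no measured value, and all 51 were found among the 35906 genes to which the sequenced transcripts could be assigned. Expression was measured by RNA sequencing of M2 CD4SP thymocytes, which are mature CD4+ T cells sorted from the thymus as CD4+CD8α-CD69-MHCI+. Every mouse was Rag1-/- and carried the Lm54 TCR transgene, so that all T cells bear a single receptor for the listeriolysin epitope presented by I-Ab (LLO:I-Ab). CtslΔTEC mice lack cathepsin L in thymic epithelial cells through Foxn1-cre, and the controls, written WT here, are Ctsl fl/fl by the labels, whereas the study writes them as wild type. Unstimulated cells came from 4 WT mice (mice 1 to 4) and 5 CtslΔTEC mice (mice 1 to 5). Cells cultured for 4 h with plate-bound LLO:I-Ab at 1 µg/ml and soluble anti-CD28 at 250 ng/ml came from 2 WT mice (5 and 6) and 2 CtslΔTEC mice (6 and 7). The mice were on a C57BL/6J background. The methods name 8 to 12 weeks as the usual age, and the age of each mouse is not given in the sources used here.

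Before a cell divides, origin recognition complex (ORC) proteins, Cdc6 and Cdt1 load the Mcm2-7 ring onto replication origins, a step called licensing that geminin (Gmnn) blocks. The ring becomes an active helicase once Cdc45 and the GINS proteins join it, after which primase, DNA polymerases, the sliding clamp Pcna and its loader extend the new strands and histone chaperones and Dnmt1 restore chromatin and DNA methylation behind the fork. Many of these genes are targets of E2F factors, which are held in check by pocket proteins in resting cells and released when cyclin-dependent kinases act on those proteins. Mature thymocytes are mostly quiescent, and a T cell whose receptor is engaged enters the cycle only after many hours of growth.

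Depth ranged from 25692380 to 39127833 estimated counts per unstimulated library and from 8085463 to 27184520 per stimulated library, so the stimulated values carry more counting error. File names carry 3 dates. The unstimulated libraries were divided between the first date (1 WT and 2 CtslΔTEC) and the second (3 of each), and all 4 stimulated libraries had the third, so stimulation, the 4 h in culture and the date cannot be told apart. Transcripts of 4 Y-linked genes summed to over 100 CPM in 1 of 4 WT and 5 of 5 CtslΔTEC unstimulated libraries and in 1 of 2 libraries of each stimulated group, and to under 10 CPM in the others. The summed level of 12 CD4SP markers was 7712.3 to 8349.1 CPM (gene counts scaled to a library of 1000000 counts) in unstimulated WT and 6632.6 to 7230.9 CPM in unstimulated CtslΔTEC libraries. Of the 12, 6 were called lower and the others were not called. Markers of B cells summed to 3.0 CPM at most. Markers of CD4+CD8+ double-positive (DP) thymocytes, the preceding stage, summed to 375.7 to 466.4 CPM in WT and 634.9 to 783.2 CPM in CtslΔTEC unstimulated cells. Ctsl itself, whose deletion through Foxn1-cre is not directed at thymocytes and so cannot be checked in them, was higher in unstimulated CtslΔTEC cells (log2 fold change 0.85, SE 0.16, adjusted p = 0.00436). In stimulated cells all 17 activation markers rose in both genotypes.

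The 51 genes were expressed at very different levels in these cells. Levels between genes are compared in TPM, which correct for transcript length as well as depth, and 47 of the 51 genes averaged at least 1 TPM over the 13 libraries, 29 at least 10 TPM and 2 at least 100 TPM. These 2 were Pcna, at a mean of 186 TPM in unstimulated cells and 298 TPM in stimulated cells, and Rpa1, the large subunit of the single-strand DNA binding complex, at 186 and 47.2 TPM. Mcm7 followed with 73.8 TPM in unstimulated cells, then E2f4 with 71.6, Rfc2 with 68.9 and Orc4 with 64.1. Retained-intron transcripts made up 88.7% of the Rfc2 level and non-coding processed transcripts 68.4% of that of Orc4. On protein-coding transcripts alone Pcna, Rpa1, Mcm7 and E2f4 were still the first 4, and Rfc2 (5.07 TPM) and Orc4 (20.3 TPM) ranked 37 and 20. At the bottom, Orc1 averaged 0.493 TPM, Mcm10 0.554, Cdc6 0.626 and Ccne2 0.754 in unstimulated cells. Factors of the same complex therefore lay far apart in level, with Orc4 at 64.1 and Orc3 at 56.3 TPM while Orc1 was the least abundant of the 51. On protein-coding transcripts alone Orc3 was at 25.4 and Orc1 at 0.186 TPM. Summed over the 51 genes, the level was 1360 TPM ± 66.1 (SD, n = 4) in unstimulated WT, 1454 ± 113 (n = 5) in unstimulated CtslΔTEC, 1326 ± 107 (n = 2) in stimulated WT and 1437 ± 24.7 (n = 2) in stimulated CtslΔTEC cells. The sums ranged from 1263.7 to 1407.7 TPM in unstimulated WT and 1249.9 to 1401.5 TPM in stimulated WT cells, and from 1342.9 to 1620.6 TPM in unstimulated and 1419.7 to 1454.7 TPM in stimulated CtslΔTEC cells, so that the ranges before and after stimulation overlapped in each genotype.

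Beneath these sums, single genes changed strongly and in opposite directions after 4 h of stimulation. In the tests that follow, a gene is called higher or lower when its adjusted p in edgeR's quasi-likelihood test over all genes is under 0.1, and a value in brackets after a gene with no other unit is its log2 fold change. In WT cells 34 of the 51 genes were called, 14 higher and 20 lower, against 32.9% of 14241 tested genes called higher and 34.8% called lower. In CtslΔTEC cells 35 were called, 16 higher and 19 lower, against 32.9% and 38.2% of all tested genes (11 higher and 24 lower with library totals in place of TMM factors). As a whole the 51 genes therefore changed about as often as other genes did, and in both directions: their median log2 fold change was -0.11 in WT and -0.13 in CtslΔTEC, beside 0.01 and -0.06 over all tested genes. Both responses called 11 of the 51 genes higher and 17 lower, none in opposite directions, and neither called 10. Over all tested genes, 28% were higher in both, 31.9% lower in both and 21.4% called in neither. The stimulated and unstimulated values did not overlap for 36 of the 51 genes in WT, against 69.2% of all tested genes, and for 37 in CtslΔTEC cells, against 71.6%. Among these were 12 of the 14 genes called higher and all 20 called lower in WT, and 14 of the 16 higher and all 19 lower in CtslΔTEC cells, near the 91.1% to 97.7% of all called genes of 1 direction in either genotype. Markers of the sorted and of other cells moved too. The summed level of the CD4SP markers was 4479.3 to 4774.9 CPM in the 4 stimulated libraries, with 7 of 12 lower in each genotype and 2 higher in CtslΔTEC cells. Of 10 DP markers 7 were lower and 1 higher after stimulation in WT and 9 lower and 1 higher in CtslΔTEC cells, with sums after stimulation of 69.4 and 74.8 CPM in WT and 101.2 and 105.9 CPM in CtslΔTEC cells, and all 6 tested erythroid markers were lower in both, with sums of 50.5 to 181.1 CPM before and 3.1 to 19.0 CPM after. Their part in the changes of the 51 genes was not tested. In bulk RNA, a change in the share of cells that express a gene and a change in RNA per cell cannot be told apart.

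**Figure D1:**
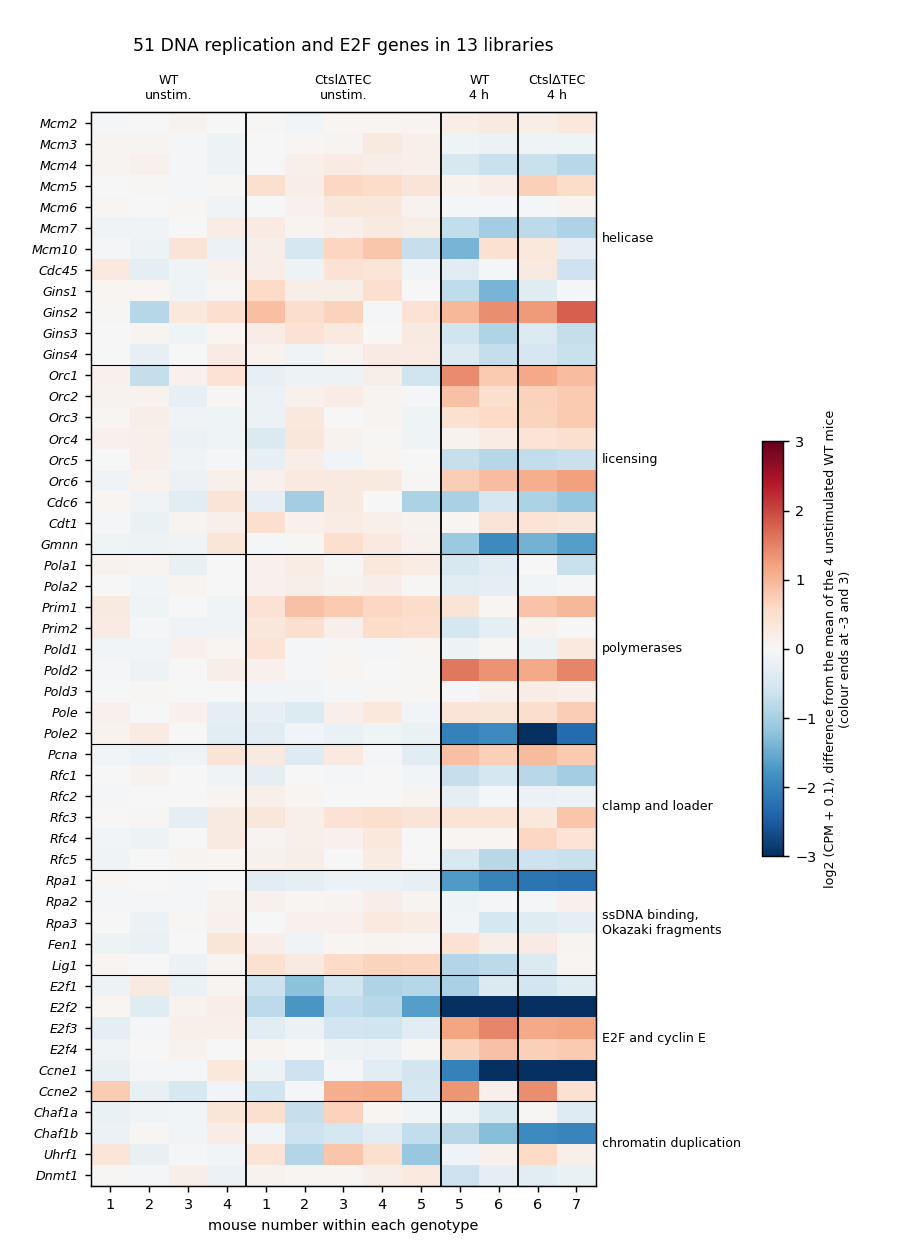
Level of each of the 51 genes (rows, grouped by role) in each of the 13 libraries (columns, by group and mouse number), as the difference in log2(CPM + 0.1) from the mean of the 4 unstimulated WT mice, with colour ending at -3 and 3. The 4 stimulated columns show both blue rows (E2f2, Ccne1, Pole2, Rpa1, Gmnn) and red rows (Pold2, E2f3, Gins2, Orc1, Orc6), while unstimulated CtslΔTEC columns differ from WT mainly in Prim1, Lig1, Mcm5, E2f1 and E2f2.

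The E2F factors and E cyclins, which sit at the top of the programme, moved furthest apart. E2f2, one of the activating E2Fs, was at 28, 20.9, 29.1 and 31.1 CPM in unstimulated WT cells and at 2.71 and 2.21 CPM after stimulation (n = 2, log2 fold change -3.47, SE 0.39, adjusted p = 1.85e-06). In CtslΔTEC cells it was at 15.6, 8.02, 16.2, 15 and 8.54 CPM before and 1.85 and 0.673 CPM after stimulation (log2 fold change -3.35, SE 0.43, adjusted p = 5.06e-06). Every stimulated library was below every unstimulated one, and these were the largest falls among the 51 genes in both genotypes. E2f3, another activator, behaved in the opposite way: it rose from a range of 10.4 to 14.3 CPM to 29.1 and 35.4 CPM in WT cells (log2 fold change 1.38, SE 0.15, adjusted p = 1.11e-06) and from a range of 8.38 to 11.3 CPM to 28.1 and 28.9 CPM in CtslΔTEC cells (log2 fold change 1.61, SE 0.14, adjusted p = 1.02e-07). E2f4, which acts mostly as a repressor together with pocket proteins, rose in both genotypes, by log2 fold changes of 0.82 in WT and 0.83 in CtslΔTEC, and by mean TPM it was the most abundant of the 4 E2F genes before and after stimulation.

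E2f1, the third activator, was low in all libraries. It was at 3.46, 4.71, 3.37 and 4.11 CPM in unstimulated and 1.94 and 2.86 CPM in stimulated WT cells, and it was called lower (log2 fold change -0.61, SE 0.26, adjusted p = 0.0512). In CtslΔTEC cells the unstimulated values were 2.46, 1.59, 2.51, 2.03 and 2.1 CPM and the stimulated ones 2.56 and 3.0 CPM, with a log2 fold change of 0.44 (95% interval -0.08 to 0.96) that did not pass the threshold. The E cyclins, which activate Cdk2 at the entry into S phase, also differed from each other. Ccne1 fell from a range of 6.07 to 8.99 CPM to 1.68 and 0.686 CPM in WT cells (log2 fold change -2.78, SE 0.34, adjusted p = 3.76e-06) and from a range of 4.64 to 6.94 CPM to 0.618 and 0.673 CPM in CtslΔTEC cells (log2 fold change -3.07, SE 0.35, adjusted p = 1.7e-06). Ccne2 ranged from 0.305 to 1.21 CPM before and from 0.572 to 1.5 CPM after stimulation, and its intervals in WT (-0.74 to 2.21) and CtslΔTEC (-0.65 to 2.05) both include 0.

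**Figure D2:**
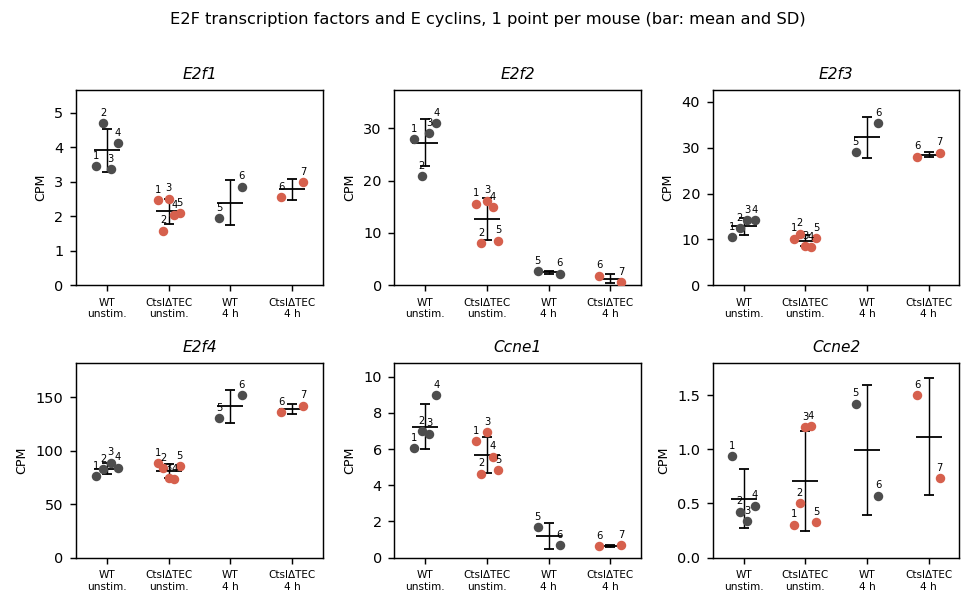
CPM of 4 E2F genes and 2 E cyclin genes, 1 point per mouse labelled with its number, with the mean and SD of each group. E2f2 and Ccne1 are near 0 in all 4 stimulated libraries, E2f3 and E2f4 are above every unstimulated library, and E2f1 separates the unstimulated genotypes (WT 3.37 to 4.71 CPM, CtslΔTEC 1.59 to 2.51 CPM).

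Promoter sequences are shown of the 4 genes with the largest called changes among those with an E2F motif, and of the 1 with the largest change among those without it, to let the motif be seen in genes that fell and in genes that rose. Pold2, which rose, has no match in its window and is not shown. The motif searched was TTTCCCGC, TTTCGCGC, TTTGCCGC or TTTGGCGC on either strand, from 250 bases before to 50 bases after the transcription start in the RefSeq promoter table of GRCm38.p6. Capitals mark a match to the motif, and each stretch is written 5′ to 3′ on the strand of its gene. E2f2 and E2f3 each have 2 promoters in this table, and the one with a match is shown. Which promoter was in use was not tested. E2f2 (chr4:136172294-136172323, plus strand) and Pole2 (chr12:69228162-69228191, minus strand) fell in both genotypes, E2f3 (chr13:29986064-29986163, minus strand) and Orc1 (chr4:108579354-108579453, plus strand) rose in both, and Ccne1 (chr7:38107491-38107590, minus strand) fell without a match anywhere in its window. The matches of E2f2 and Pole2 lie downstream of the start, so 30 bases around them are given, and for the other 3 genes the 100 bases before the start are given.
E2f2: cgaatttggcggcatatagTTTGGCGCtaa
Pole2: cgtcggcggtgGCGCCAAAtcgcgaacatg
E2f3: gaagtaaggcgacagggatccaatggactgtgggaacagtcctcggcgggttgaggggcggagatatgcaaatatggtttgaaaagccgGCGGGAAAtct
Orc1: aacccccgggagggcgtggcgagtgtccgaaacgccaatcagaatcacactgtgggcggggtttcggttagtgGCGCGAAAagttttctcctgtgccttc
Ccne1: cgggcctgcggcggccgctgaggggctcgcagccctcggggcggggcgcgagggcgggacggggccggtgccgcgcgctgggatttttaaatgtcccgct
A promoter was found for 41 of the 51 genes, and 19 of these (46.3%) held the motif, against 2.6% of 27025 genes in the table. Of the 41, the motif was present in 5 of 11 genes that rose, 7 of 15 that fell and 7 of 15 that were not called in WT cells. In CtslΔTEC cells the counts were 5 of 13, 7 of 14 and 7 of 14. CCAAT on either strand was in 26 of the 41 promoters (63.4%) and in 41.1% of all genes, and TTTGAA, the cell-cycle homology element, in 8 (19.5%) and in 20.2%. Matches on opposite strands overlapped in Mcm5 and Mcm6. Such matches are descriptions of the sequence and do not show binding.

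Among the 9 licensing genes, 5 rose and 2 fell in each genotype. Orc6, the smallest ORC subunit, rose from 12.2, 14, 11.6 and 14.6 CPM to 21.7 and 24.8 CPM in WT cells (log2 fold change 0.88, SE 0.12, adjusted p = 1.72e-05) and from 14.4, 16, 15.8, 15.8 and 13.3 CPM to 27.8 and 30.9 CPM in CtslΔTEC cells (log2 fold change 1.02, SE 0.12, adjusted p = 1.54e-06). Orc2, a structural subunit of the complex, rose with log2 fold changes of 0.73 in WT and 0.75 in CtslΔTEC, and Orc3, another, with 0.57 in WT and 0.76 in CtslΔTEC. Orc1, the ATPase that joins the complex late, rose from a range of 0.248 to 0.676 CPM to 0.877 to 1.42 CPM over both genotypes, with a log2 fold change of 1.17 (SE 0.42, adjusted p = 0.0245) in WT and 1.43 (SE 0.40, adjusted p = 0.00582) in CtslΔTEC cells. Orc1 rests on 7 to 24 counts per library. Orc5 went the other way and fell from a range of 29.3 to 34.9 CPM to 19.4 and 17.3 CPM in WT cells (log2 fold change -0.74, SE 0.13, adjusted p = 0.000133) and with a log2 fold change of -0.65 (SE 0.12, adjusted p = 0.000286) in CtslΔTEC cells. Subunits of the one ORC complex thus moved in opposite directions.

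The regulators of licensing differed as well. Gmnn, the inhibitor of Cdt1, was at 4.46, 4.4, 4.54 and 6.28 CPM in unstimulated and 2.2 and 1.22 CPM in stimulated WT cells (log2 fold change -1.59, SE 0.28, adjusted p = 0.000165), and it fell in CtslΔTEC cells from a range of 4.78 to 6.94 CPM to 1.77 and 1.47 CPM (log2 fold change -1.75, SE 0.27, adjusted p = 4.44e-05). Cdt1, which brings the Mcm2-7 ring to ORC, was higher in WT cells after stimulation (log2 fold change 0.29, SE 0.13, adjusted p = 0.0709) and had a log2 fold change of 0.2 (95% interval -0.07 to 0.47) in CtslΔTEC cells. Cdc6, the ATPase that helps load the ring, was at 0.734 to 2.14 CPM before and 0.673 to 1.11 CPM after stimulation, with intervals of -1.63 to 0.22 in WT and -1.73 to 0.2 in CtslΔTEC cells. Orc4 was called higher in CtslΔTEC cells alone (log2 fold change 0.5, SE 0.15, adjusted p = 0.00985). Its log2 fold change in WT cells was 0.22 (95% interval -0.13 to 0.56), and the difference between the genotypes was not called.

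The helicase genes gave no common direction: 2 of 12 rose and 5 fell in WT, and 3 rose and 4 fell in CtslΔTEC cells. Even the 6 subunits of the Mcm2-7 ring, which assemble in equal numbers, separated. Mcm7 was at 72.7, 73, 77 and 91.2 CPM in unstimulated and 47 and 38.1 CPM in stimulated WT cells (log2 fold change -0.85, SE 0.12, adjusted p = 1.44e-05), and at 92.9, 82.7, 86.9, 94.3 and 88.3 CPM and 45.2 and 40.8 CPM in CtslΔTEC cells (log2 fold change -1.0, SE 0.11, adjusted p = 1.62e-06). Mcm4 also fell, with a log2 fold change of -0.54 (SE 0.11, adjusted p = 0.000365) in WT and -0.85 (SE 0.10, adjusted p = 3.11e-06) in CtslΔTEC cells. Mcm2 rose slightly, from 71.6 to 80.8 CPM in the 9 unstimulated to 85.9 to 94 CPM in the 4 stimulated libraries, with a log2 fold change of 0.28 in each genotype (adjusted p = 0.00699 in WT and 0.00604 in CtslΔTEC). Mcm3 and Mcm6 were not called in either genotype, with intervals of -0.32 to 0.1 and -0.24 to 0.21 in WT and -0.38 to 0.02 and -0.33 to 0.11 in CtslΔTEC cells. Mcm5 passed the threshold in CtslΔTEC cells (log2 fold change 0.23, SE 0.10, adjusted p = 0.0633) and had a near equal log2 fold change of 0.21 in WT cells that did not (adjusted p = 0.112).

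The GINS genes, whose 4 products form 1 complex, also differed in direction. Gins2 rose from 0.88, 0.425, 1.09 and 1.24 to 1.81 and 2.4 CPM in WT cells (log2 fold change 1.28, SE 0.38, adjusted p = 0.00882) and with a log2 fold change of 1.14 (SE 0.35, adjusted p = 0.0105) in CtslΔTEC cells, on 12 to 66 counts per library. Of its exon bases 67.3% are shared with Gse1 on the other strand, and retained-intron transcripts made up 61.8% of its TPM in unstimulated cells, so its reads may be divided. Gins3 fell with log2 fold changes of -0.74 in WT and -0.78 in CtslΔTEC, and Gins4 with -0.54 in WT and -0.65 in CtslΔTEC. Gins1 was called lower in WT cells (log2 fold change -1.26, SE 0.36, adjusted p = 0.0061), and its log2 fold change in CtslΔTEC cells was -0.49 (95% interval -1.13 to 0.15). It had only 5 and 10 counts in the stimulated WT libraries. Mcm10 and Cdc45, which help to turn the loaded ring into a moving helicase, were at 0.258 to 1.58 and 1.96 to 4.17 CPM over all 13 libraries and were called in no comparison.

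In the polymerase group the largest changes were those of Pold2 and Pole2. Pold2, the second subunit of polymerase delta, had 22.4, 20.8, 23.2 and 25.9 CPM in unstimulated and 69.2 and 58.4 CPM in stimulated WT cells (log2 fold change 1.51, SE 0.11, adjusted p = 2.13e-08). In CtslΔTEC cells it rose from 25.2, 22, 23.8, 23 and 23.5 to 50.5 and 63.1 CPM (log2 fold change 1.33, SE 0.11, adjusted p = 3.78e-08), and no stimulated library overlapped an unstimulated one. Pole2, the second subunit of polymerase epsilon, fell from 10.5, 11.6, 9.86 and 7.69 to 2.33 and 2.52 CPM in WT (log2 fold change -1.97, SE 0.22, adjusted p = 1.49e-06) and from 7.7, 9.19, 8.59, 8.93 and 8.49 to 1.15 and 1.9 CPM in CtslΔTEC cells (log2 fold change -2.4, SE 0.23, adjusted p = 2.19e-07). Among the catalytic subunits, Pole rose by log2 fold changes of 0.43 in WT and 0.75 in CtslΔTEC, Pola1 of polymerase alpha fell by 0.36 in WT and 0.45 in CtslΔTEC on the log2 scale (0.05 in WT, past no threshold, with an offset for transcript length), and Pold1 was not called, with intervals of -0.33 to 0.3 and -0.25 to 0.36. Of the other members of the group, Prim2 fell slightly in both genotypes (-0.34 in WT and -0.32 in CtslΔTEC), Pola2 was lower in WT alone (-0.25, adjusted p = 0.0194), and Prim1 (0.32, adjusted p = 0.0745) and Pold3 (0.27, adjusted p = 0.00826) were higher in CtslΔTEC alone, none with a called difference between the genotypes' responses.

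Pcna, the sliding clamp that holds polymerases on DNA, was at 149.6, 139, 145 and 206 CPM in unstimulated and 297 and 258 CPM in stimulated WT cells (log2 fold change 0.84, SE 0.19, adjusted p = 0.00134). In CtslΔTEC cells it rose from 189.98, 122, 195, 153 and 126 to 304 and 271 CPM (log2 fold change 0.93, SE 0.18, adjusted p = 0.000366). All 4 stimulated libraries were above all unstimulated ones, and the unstimulated values themselves varied with the date. A retained-intron transcript of Pcna (Pcna-204) made up 19.4 to 21.6% of Pcna TPM in the 3 libraries of the first date, 5.6 to 9.4% in the 6 of the second and 7.6 to 11.2% in the 4 stimulated libraries. The main coding transcript (Pcna-201) was at 114.3 to 177.8 TPM in unstimulated and 242.0 to 272.9 TPM in stimulated libraries, so that it alone also separated them. Within the clamp loader, Rfc1, the large subunit, fell from a range of 68.3 to 79.3 CPM to 45.3 and 50.6 CPM in WT (log2 fold change -0.57, SE 0.10, adjusted p = 0.0002) and from a range of 60.7 to 74.5 CPM to 41.2 and 35.7 CPM in CtslΔTEC cells (log2 fold change -0.81, SE 0.10, adjusted p = 4.58e-06). Rfc5 fell in both genotypes (-0.61 in WT and -0.71 in CtslΔTEC). Rfc3 was called higher in WT alone (0.45, adjusted p = 0.0438), Rfc4 higher (0.43, adjusted p = 0.0217) and Rfc2 lower (-0.17, adjusted p = 0.0987) in CtslΔTEC alone, with no called difference between the genotypes' responses.

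Rpa1 showed the best separated change of the 51 genes by adjusted p. It was at 305, 299.7, 288 and 294 CPM in unstimulated and 91.8 and 73.5 CPM in stimulated WT cells (log2 fold change -1.8, SE 0.10, adjusted p = 7.73e-10), and it fell from 235, 247, 264, 261 and 250.3 CPM to 64.7 and 63 CPM in CtslΔTEC cells (log2 fold change -1.92, SE 0.10, adjusted p = 2.29e-10). Of its partners, Rpa2 was not called (intervals -0.25 to 0.15 and -0.22 to 0.17), and Rpa3 was called lower in CtslΔTEC (-0.42, adjusted p = 0.0136) with an interval of -0.58 to 0.02 in WT cells. The 3 subunits bind single-stranded DNA as 1 trimer. Lig1, the ligase that joins Okazaki fragments, fell from 14, 13.5, 11.9 and 14.2 to 7.23 and 7.74 CPM in WT (log2 fold change -0.79, SE 0.16, adjusted p = 0.000611) and from 18.4, 16.2, 20.04, 21.3 and 21 to 9.88 and 13.9 CPM in CtslΔTEC cells (log2 fold change -0.64, SE 0.15, adjusted p = 0.00168). Fen1, the nuclease that trims the flaps before ligation, was called higher in WT (0.33, adjusted p = 0.0689) and had an interval of -0.15 to 0.47 in CtslΔTEC cells. Of its exon bases 84.2% are shared with another gene, so reads may be divided between them.

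Of the 4 genes that restore chromatin behind the fork, 2 fell in each genotype and the other 2 were not called. Chaf1b, a subunit of the histone chaperone CAF-1, fell from 19.3, 22.6, 20.8 and 25.7 to 12.3 and 9.08 CPM in WT (log2 fold change -1.03, SE 0.20, adjusted p = 0.000304) and from 20.7, 14.3, 15.3, 17.5 and 13.1 to 5.82 and 5.5 CPM in CtslΔTEC cells (log2 fold change -1.46, SE 0.20, adjusted p = 1.33e-05). The large CAF-1 subunit Chaf1a was at 1.73 to 4.65 CPM before and 2.06 to 2.91 CPM after stimulation, not called in either genotype. Dnmt1, the maintenance DNA methyltransferase, fell with a log2 fold change of -0.4 (SE 0.11, adjusted p = 0.00637) in WT and -0.35 (SE 0.11, adjusted p = 0.0106) in CtslΔTEC cells. Uhrf1, which recruits Dnmt1 to newly copied DNA, was at 2.36 to 9.57 CPM before and 4.91 to 8.03 CPM after stimulation, with intervals of -0.91 to 1.04 and -0.61 to 1.22.

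**Figure D3:**
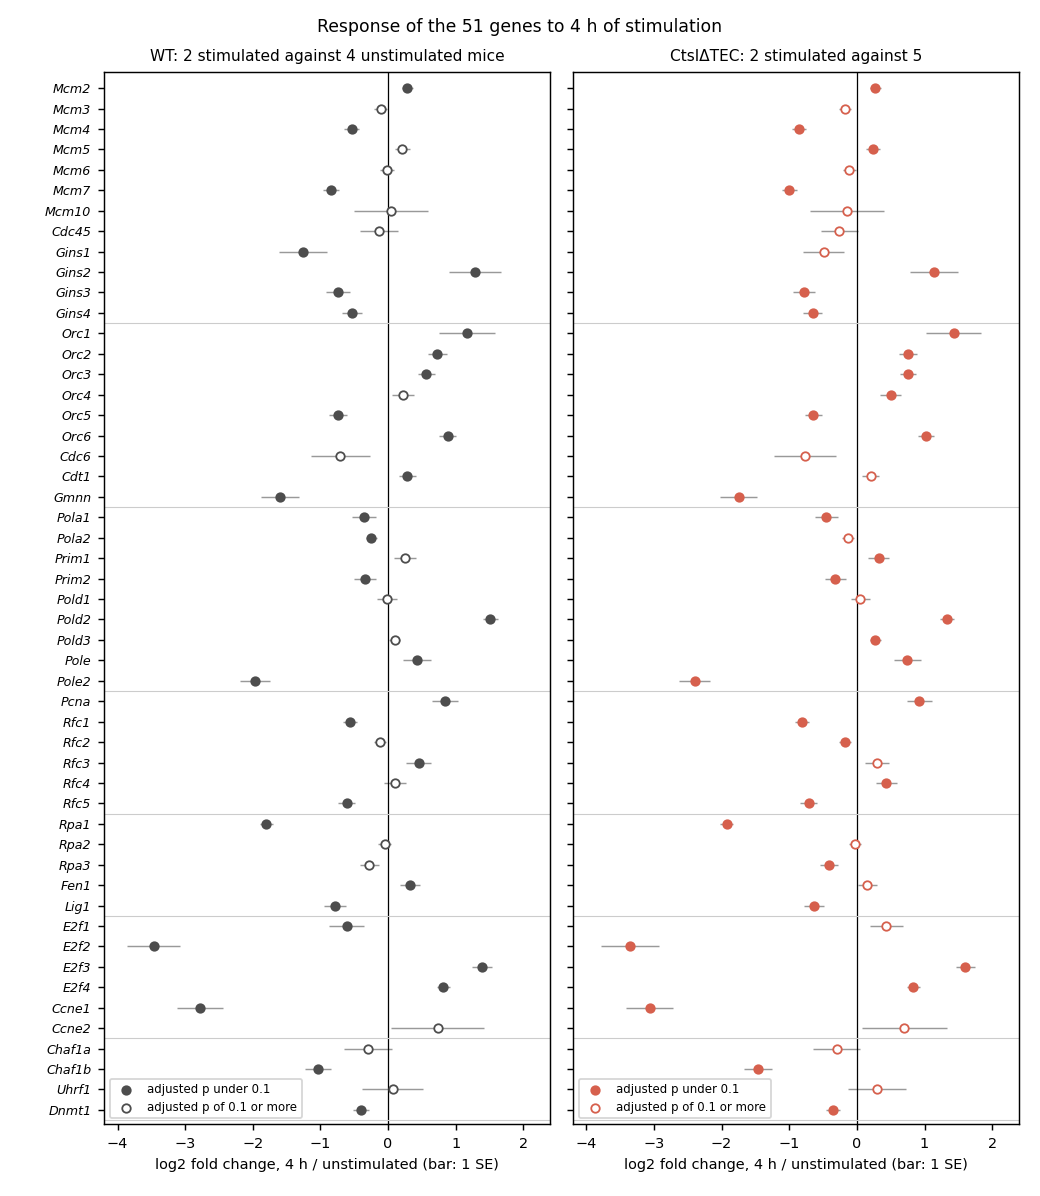
Log2 fold change of each of the 51 genes between stimulated and unstimulated cells in WT (left, 2 against 4 mice) and CtslΔTEC (right, 2 against 5 mice), with bars of 1 SE, filled points for an adjusted p under 0.1 and open points otherwise. E2f2, Ccne1, Pole2 and Rpa1 lie furthest to the left in both panels, with Pold2 and E2f3 furthest to the right in WT and E2f3 and Orc1 in CtslΔTEC cells.

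The levels of single transcripts within these genes also varied. Of the 51 genes, 37 had more than 1 transcript at 1 TPM or more in a group. For Mcm7 the main coding transcript (Mcm7-201) made up 43.5% of its TPM in unstimulated and 33.8% in stimulated WT cells, and 45.5% and 32.1% in CtslΔTEC cells. A retained-intron transcript of Dnmt1 (Dnmt1-206) went from 5.4% to 20.6% in WT and from 6.3% to 21.8% in CtslΔTEC cells. Over all genes, retained-intron transcripts took 5.13 to 6.59% of counts in unstimulated and 5.99 to 8.55% in stimulated libraries. Its part in the Dnmt1 and Mcm7 shares was not tested. For Rpa1 the main coding transcript was at a mean of 123 TPM before and 32.5 TPM after stimulation in WT and at 107 and 25.1 TPM in CtslΔTEC cells. For E2f3 both coding transcripts were at higher mean TPM after stimulation. These shares are kallisto estimates given without a test.

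Other genes of the pathway, from lists written with earlier results known, changed in both directions too. Of 13 tested genes of the wider E2F family and its pocket proteins, 4 rose and 6 fell in WT and 3 rose and 6 fell in CtslΔTEC cells. Rbl1 and Rbl2, pocket proteins that hold E2Fs in check, fell by 2.07 and 2.62 on the log2 scale in WT and by 2.46 and 3.11 in CtslΔTEC cells. The DNA-binding partners of E2Fs changed in opposite directions, as Tfdp1 rose (1.37 in WT and 1.46 in CtslΔTEC) and Tfdp2 fell (-2.19 in WT and -2.53 in CtslΔTEC). Of 24 other E2F targets, 5 rose and 13 fell in WT and 5 rose and 14 fell in CtslΔTEC cells. Among them Stmn1, a microtubule regulator, fell (-2.65 in WT and -3.14 in CtslΔTEC), and Ung, which removes uracil from DNA, rose (1.57 in WT and 1.53 in CtslΔTEC).

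Of 26 origin firing and fork factors, 7 rose and 13 fell in WT and 8 rose and 11 fell in CtslΔTEC cells. Of 12 genes of nucleotide supply, 3 rose and 4 fell in WT and 3 rose and 6 fell in CtslΔTEC cells, with Nme1, a nucleoside diphosphate kinase, up (2.03 in WT and 2.33 in CtslΔTEC) and Dck, the deoxycytidine kinase, down (-1.95 in WT and -3.54 in CtslΔTEC). Of 14 checkpoint genes, 6 rose in each genotype and 2 fell in WT and 3 in CtslΔTEC cells. Cdkn1a, an inhibitor of cyclin-dependent kinases, had 2 to 8 counts per unstimulated library and 340 to 1103 counts per stimulated library (adjusted p = 3.45e-12 in WT and 9.91e-13 in CtslΔTEC cells). Cdkn1b, an inhibitor of the same family that is abundant in resting lymphocytes, fell (-2.4 in WT and -2.88 in CtslΔTEC). Of the 5 S-phase cyclins and kinases, 3 fell in WT and 2 in CtslΔTEC cells, Cdk2 among them (-1.01 in WT and -1.18 in CtslΔTEC). Of 30 mitosis genes, 13 fell and 3 rose in WT and 18 fell and 3 rose in CtslΔTEC cells, and their summed level was 163.2 to 263.8 CPM before and 89.2 to 101.2 CPM after stimulation. All these lists share their 13 libraries and date with the 51 genes.

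The next question was whether the genotype of the thymic epithelium left a trace on these genes in unstimulated cells. Of the 51 genes, 4 were higher and 5 lower in CtslΔTEC cells, against 6.42% of 13152 tested genes called higher and 8.36% called lower. Library totals in place of TMM factors gave 8 higher and 4 lower. The share called, 17.6%, is near that of all genes. Primase and ligase genes were among those higher. Prim1, the catalytic subunit of primase, was at 11.5, 8.76, 9.59 and 8.68 CPM in WT and 13, 17.6, 16.5, 14.7 and 14.1 CPM in CtslΔTEC cells (log2 fold change 0.66, SE 0.12, adjusted p = 0.00413), and Prim2, its large subunit, at 11.3, 9.29, 8.84 and 8.87 CPM in WT and 12.2, 13.5, 10.6, 14.1 and 13.6 CPM in CtslΔTEC cells (log2 fold change 0.42, SE 0.11, adjusted p = 0.0342). Lig1, whose values are listed above, was at 11.9 to 14.2 CPM in WT and 16.2 to 21.3 CPM in CtslΔTEC cells (log2 fold change 0.54, SE 0.10, adjusted p = 0.00429). Mcm5 was at 35, 36, 33.8 and 36.3 CPM in WT and 49.2, 40.2, 54, 51.7 and 46.3 CPM in CtslΔTEC cells (log2 fold change 0.46, SE 0.09, adjusted p = 0.00536). All 5 CtslΔTEC mice were above all 4 WT mice for Prim1, Lig1 and Mcm5, whereas WT mouse 1 overlapped the CtslΔTEC range for Prim2. The other 11 helicase genes also had positive log2 fold changes, from 0.04 to 0.49, also under the other 4 scalings tried, but did not pass the threshold. The median was 0.19 over the 12 helicase genes and 0.01 over all tested genes. Mcm10, Gins1 and Gins2 rest on 12 to 71 counts per unstimulated library.

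Activating E2F genes were lower in the same cells. E2f2 was at 20.9 to 31.1 CPM in WT and 8.02 to 16.2 CPM in CtslΔTEC cells (log2 fold change -1.1, SE 0.22, adjusted p = 0.00692), and E2f1 at 3.37 to 4.71 CPM in WT and 1.59 to 2.51 CPM in CtslΔTEC cells (log2 fold change -0.87, SE 0.18, adjusted p = 0.00862). All CtslΔTEC mice were below all WT mice for both, and over all 51 genes 6 did not overlap between the genotypes, against 13.8% of all tested genes. E2f3 was lower as well (log2 fold change -0.4, SE 0.13, adjusted p = 0.0698), with overlap between 10.4 to 14.3 CPM in WT and 8.38 to 11.3 CPM in CtslΔTEC cells. Rpa1 was lower, at 235 to 264 CPM against 288 to 305 CPM without overlap (log2 fold change -0.24, SE 0.06, adjusted p = 0.0199), and Chaf1b was lower with overlap (log2 fold change -0.44, SE 0.14, adjusted p = 0.0595). The calls of E2f3 and Chaf1b were lost under 12 and 9 of 24 alternatives, with log2 fold changes between -0.54 and -0.26 and between -0.55 and -0.3. E2f4 was not called, with an interval of -0.19 to 0.14, nor was Pcna, with an interval of -0.38 to 0.34. The 42 genes not called had log2 fold changes between -0.36 and 0.49.

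**Figure D4:**
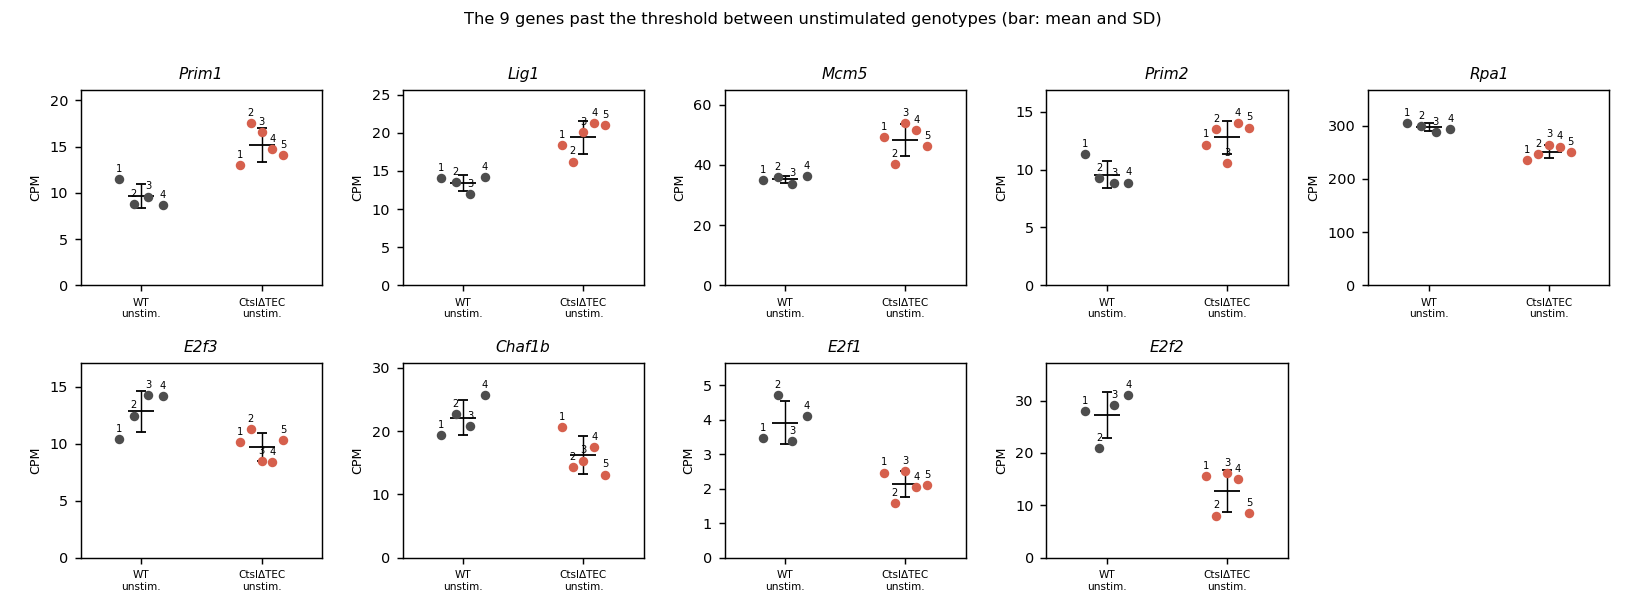
CPM of the 9 genes past the threshold between unstimulated genotypes, 1 point per mouse labelled with its number, with the mean and SD of each group on axes from 0. Prim1, Lig1, Mcm5, Rpa1, E2f1 and E2f2 separate the 4 WT from the 5 CtslΔTEC mice, while Prim2, E2f3 and Chaf1b overlap.

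Other traits of the libraries moved with genotype. Of 9 tested DP thymocyte markers, 7 were higher in CtslΔTEC cells, with Cd8a at 23.5 to 33.7 CPM against 4.15 to 4.69 CPM in WT. Rag2, a defining DP gene too low to be tested, was at 0.101 to 1.91 against 0.00 to 0.30 CPM, with overlap. Of 4 tested NK and innate markers 2, Klrd1 and Nkg7, were lower, with sums over the list of 5.9 to 7.2 CPM in WT and 2.9 to 4.8 CPM in CtslΔTEC cells. Their part in the differences of the 51 genes was not tested. With the level of Y-linked transcripts as a covariate, Lig1 alone of the 9 genes passed the threshold, and the adjusted p of the other 8 was 0.151 to 0.675. All 9 kept the sign of their log2 fold change under it, with 0.64 for Prim1, 0.53 for Mcm5, -1.18 for E2f2, -0.63 for E2f1, -0.54 for E2f3, -0.32 for Chaf1b and -0.2 for Rpa1. Over all genes that covariate left 121 higher and 308 lower. Among the wider lists, Timeless, a fork protection factor (log2 fold change 0.43, SE 0.09, adjusted p = 0.00746), and Wdhd1, which links polymerase alpha to the helicase (log2 fold change 0.46, SE 0.11, adjusted p = 0.0234), were 2 of 4 called origin firing and fork factors, all higher. The CDK-activating phosphatase Cdc25b (log2 fold change -1.83, SE 0.09, adjusted p = 4.37e-07) and Samhd1, which degrades nucleotides (log2 fold change -1.37, SE 0.16, adjusted p = 0.000213), were lower. Of 24 other E2F targets 2 were higher, of 12 genes of nucleotide supply 3 were lower, and of the wider E2F family Tfdp1 alone was called (log2 fold change -0.39, SE 0.08, adjusted p = 0.00655). Of the 30 mitosis genes and of 13 tested checkpoint genes edgeR called 0, with 1 of each at an unadjusted p under 0.05, and the summed mitosis level was 166.4 to 233.8 CPM in WT and 163.2 to 263.8 CPM in CtslΔTEC cells.

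In stimulated cells, 3 of the 51 genes were higher and 2 lower in CtslΔTEC cells, against 2.77% of 14241 tested genes called higher and 10.6% called lower. All 5 had also been called in the same direction before stimulation, in other mice, though 1 model of all 13 libraries gave the spread for the stimulated test. The share of all tested genes called alike in both comparisons is not given here, so how usual this is cannot be told. Prim1 was at 12.5 and 9.99 CPM in WT and 17.4 and 19.1 CPM in CtslΔTEC cells (log2 fold change 0.73, SE 0.19, adjusted p = 0.0266), Lig1 at 7.23 and 7.74 CPM in WT and 9.88 and 13.9 CPM in CtslΔTEC (log2 fold change 0.68, SE 0.19, adjusted p = 0.0321) and Mcm5 at 38 and 40.8 CPM in WT and 57.8 and 51.5 CPM in CtslΔTEC (log2 fold change 0.48, SE 0.13, adjusted p = 0.03). Chaf1b was at 12.3 and 9.08 CPM in WT and 5.82 and 5.5 CPM in CtslΔTEC cells (log2 fold change -0.88, SE 0.24, adjusted p = 0.0313), and Rpa1 at 91.8 and 73.5 CPM in WT and 64.7 and 63 CPM in CtslΔTEC (log2 fold change -0.36, SE 0.11, adjusted p = 0.0508). The 2 values of each genotype did not overlap for these 5 genes, nor for 18 that were not called, 23 of 51 in all against 49.6% of all tested genes. The summed DP markers of these libraries, given above, and the summed activation markers (13243.3 and 15660.6 CPM in WT, 17009.7 and 17293.7 CPM in CtslΔTEC) did not overlap between the genotypes either. Of 10 DP markers 3 were called higher and 1 lower, and of 17 activation markers 3 were higher and 2 lower. Sums of thymic epithelial markers (68.8 and 73.1 CPM in WT, 56.1 and 61.4 CPM in CtslΔTEC) and of myeloid markers (10.8 and 24.8 against 7.1 and 8.3 CPM) did not overlap, nor did the percentage of counts that retained-intron transcripts took (5.99 and 7.63% against 7.94 and 8.55%). The same held for sums of CD4SP markers (4479.3 and 4679.3 CPM in WT, 4774.9 and 4729.5 CPM in CtslΔTEC). It also held for B cell markers (1.3 and 1.8 against 2.6 and 2.1 CPM). The part of all these in the 5 calls was not tested. Leaving out 1 of the 4 mice left 1 to 5 genes past the threshold, with 1 without WT mouse 5 and 2 without either CtslΔTEC mouse 6 or CtslΔTEC mouse 7. Without WT mouse 5 only Prim1 of the 5 was called, and the log2 fold change of Rpa1 was -0.2. Without CtslΔTEC mouse 7 that of Lig1 was 0.39 and only Mcm5 of the 5 was called. Without CtslΔTEC mouse 6 the calls of Mcm5, Rpa1 and Chaf1b were lost, and without WT mouse 6 that of Prim1. Rpa1 thus lost its call under 3 of these 4, and under 7 of 16 alternatives in all.

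Whether stimulation acted differently in the genotypes was tested by the interaction, for which 1.13% of tested genes were called higher and 4.88% lower. Of the 51 genes edgeR called 0, 2 had an unadjusted p under 0.05 in edgeR, and DESeq2 called 1. That gene was E2f1, with an interaction (response in CtslΔTEC minus response in WT) of 1.05 on the log2 scale (SE 0.35, 95% interval 0.29 to 1.81, unadjusted p = 0.0101, adjusted p = 0.135 in edgeR and 0.0903 to 0.566 over the alternatives). The unstimulated genotypes differed in E2f1 as given above, and the stimulated difference was 0.18 (95% interval -0.47 to 0.83). The other gene was Mcm4, with an interaction of -0.31 (95% interval -0.62 to -0.01, adjusted p = 0.293). Over all 51 genes the 95% intervals of the interaction reached from -2.02 to 1.95. Of the wider lists, Dck had an interaction of -1.59 (SE 0.38, adjusted p = 0.0347) and fell in both genotypes, as given above. Dut, which removes dUTP, had an interaction of -0.79 (SE 0.21, adjusted p = 0.0533), and its response was -0.23 (SE 0.15, adjusted p = 0.204) in WT, not called. In CtslΔTEC cells it fell, with -1.01 (SE 0.15, adjusted p = 2.96e-05). Wdhd1 had an interaction of -0.79 (SE 0.21, adjusted p = 0.0505), as it rose in WT (log2 fold change 0.39, SE 0.15, adjusted p = 0.0325) and fell in CtslΔTEC cells (log2 fold change -0.41, SE 0.15, adjusted p = 0.023).

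The spread between mice of 1 group was not equal among the 51 genes. In unstimulated cells, CtslΔTEC mice 2 and 5 had the 2 lowest values of the 5 CtslΔTEC mice for 13 of the 51 genes (25.5%). They did so for 23 of 30 mitosis genes (76.7%) and for 12.4% of all tested genes. The share over all genes was ranked on library totals, and the other shares on TMM-normalized CPM. These 2 mice were picked for their low mitosis level after the data were seen, so the mitosis count was partly fixed by that choice. Mki67, a marker of cycling cells picked here after its values were seen, was at 2.67 and 1.77 CPM in these mice and at 8.82, 16.2 and 16 CPM in CtslΔTEC mice 1, 3 and 4. Uhrf1 followed this order, at 2.85 and 2.36 CPM against 7.04, 9.57 and 7.38 CPM, as did Mcm10 and Cdc6 (1.35, 0.734, 1.99, 1.64 and 0.786 CPM in CtslΔTEC mice 1 to 5). The subunits Mcm2 (71.6 to 80.3 CPM), Rfc2 (45.8 to 51.4 CPM) and Pola2 (39.2 to 43.6 CPM) varied little. E2f2 and Chaf1b, both lower in unstimulated CtslΔTEC cells, are among the 13, as is Mcm5, which was higher. Without these 2 mice, an exclusion chosen after seeing the data, 6 of the 9 genes remained past the threshold and Prim2, Rpa1 and Chaf1b did not.

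**Figure D5:**
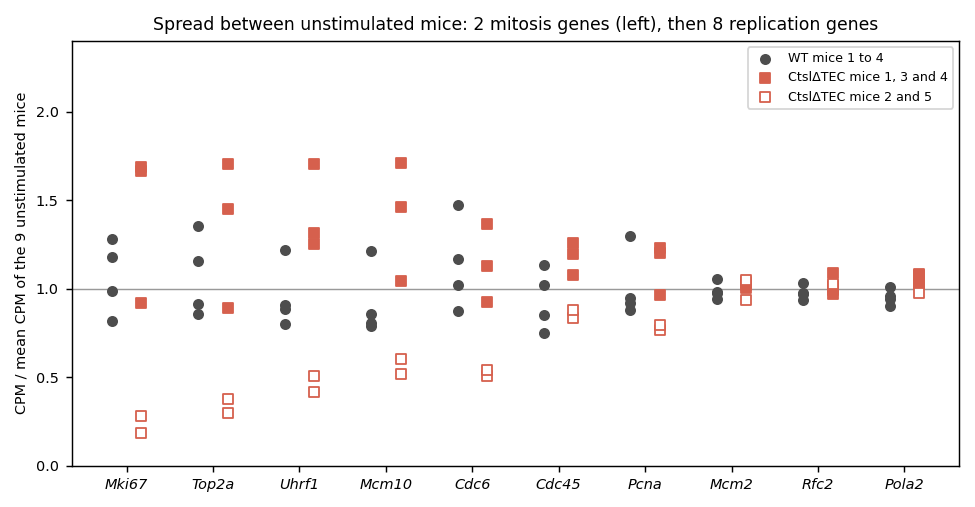
CPM of 2 mitosis genes and 8 of the 51 genes, chosen after their values were seen, in the 9 unstimulated mice, each divided by its mean over these mice (line at 1), with CtslΔTEC mice 2 and 5 as open squares. The open squares are lowest for Mki67, Top2a, Uhrf1, Mcm10, Cdc6 and Pcna and mix with the other mice for Mcm2, Rfc2 and Pola2.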

How the data were processed

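RNA of M2 CD4SP thymocytes was sequenced from 13 mice, 1 library per mouse (NovaSeq, paired reads). The authors quantified transcripts with kallisto 0.48 against an Ensembl transcriptome and deposited estimated counts and TPM per transcript. The labels name polyadenylated RNA, whereas the methods of the study describe rRNA depletion. The labels give the controls floxed Ctsl, and the study writes them as wild type. Neither could be settled here.

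Of 117497 transcripts, 116397 had a gene in GENCODE M21 (GRCm38), and the others took at most 0.461% of the counts in a library. Estimated counts were added up per gene and rounded. Genes kept by filterByExpr were tested with edgeR 4.0.16 in R 4.3.3 (TMM, quasi-likelihood F test, Benjamini-Hochberg over all tested genes, adjusted p under 0.1). The unstimulated comparison used 9 libraries, and the other comparisons a model of 4 groups over 13 libraries, where 2 mice per stimulated group are assumed to vary like the rest. SEs come from the fold change and F, and 95% intervals from the SE and the t quantile at the test's degrees of freedom. CPM are TMM-normalized. On simulated data the scripts recovered planted changes, which were larger than most of those reported here and lay in well-counted genes. Smaller changes and genes of low count were not simulated. Replicates were checked and none were identical.

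The 51 genes and all lists were chosen with earlier results of these data known. By the naming rule, any of the 51 genes could be named in the text. Values per mouse were given for up to 4 genes per role and comparison with the smallest adjusted p past the threshold and for a fixed group of well-known members, and from the other lists up to 4 genes per comparison by the same rule. Alternatives covered normalization, low-count filters, DESeq2 1.42.0, transcript length, depth, Y-linked transcripts, file date, mouse number and leaving out each mouse, and 4 were added after seeing the data. Protein sequences were not used here, and 10 promoters were not in the table. In 10 of the genes over 10% of exon bases are shared with another gene, and without strand such reads may be divided.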

Additional observations from a re-analysis of the deposited data

Results flagged for a closer look

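In 104 sets of 4 or 5 unstimulated mice (51 genes and their sum, in each genotype), 7 held a mouse whose gap to the others exceeded the 95% limit of Dixon's test, where chance gives about 1 in 20. Mouse 4 of the WT group was highest for Pcna (205.6 CPM, others 139 to 149.6), Gmnn (6.28, others 4.39 to 4.54) and Rpa2 (29.2, others 26.3 to 26.4). It is the only unstimulated WT library of the first file date, and the part of the date was not tested. Mouse 3 of the WT group was highest for Mcm10 (1.12 CPM, others 0.732 to 0.792) and lowest for Gins1 (1.05 CPM, others 1.18 to 1.21). CtslΔTEC mouse 1, of the first date, was highest for Cdt1 (48.7 CPM, others 37.5 to 40.3) and Pold1 (55.3 CPM, others 39.9 to 43.6).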

How the results depend on the processing

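Among the called genes, 1 value changed sign: Pola1 in WT went from -0.36 to 0.05 (adjusted p = 0.851) with an offset for transcript length. The count of 9 genes between unstimulated genotypes was 7 to 10 when each mouse was left out and 1 with Y-linked transcripts as a covariate. E2f3 was lost under 12 of 24 alternatives and Chaf1b under 9. Library totals without scaling factors gave 8 higher and 4 lower in place of 4 and 5, and 11 higher and 24 lower in place of 16 and 19 for the response of CtslΔTEC cells, where they moved the median of all genes from -0.06 to -0.21. The 5 genes of the stimulated comparison became 8 with at least 10 counts in every library, 3 in the 4 stimulated libraries alone and 1 to 5 when a mouse was left out. For the interaction the count of 0 became 1, E2f1, with at least 10 counts in every library, with DESeq2 and without WT mouse 6 (0 to 1 over all mice left out). The responses had 28 to 35 called genes in WT and 28 to 39 in CtslΔTEC cells over all alternatives (28 to 32 and 28 to 36 when a mouse was left out), of which 27 to 34 and 28 to 34 were among the 34 and 35 genes first called. On protein-coding transcripts alone the summed TPM was 994.3 in unstimulated WT, 1033.6 in unstimulated CtslΔTEC, 960.3 in stimulated WT and 978.6 in stimulated CtslΔTEC cells.

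Mouse numbers did not pair the unstimulated samples: the deviations of equally numbered mice correlated at -0.155, 0.347, -0.097 and -0.138. With mouse number as a replicate block 5 of the genes were called, without Prim2, Rpa1, E2f3 and Chaf1b. Stimulated groups share a single number, so no block could be fitted there.

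Depth limits the low genes. Orc1 had 7 to 24 counts per library, Mcm10 2 to 52 and Gins1 5 to 71, and the stimulated groups have 2 mice each.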
